A study of Mus musculus with 12 samples.

Results

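Oxidative phosphorylation genes were taken as every gene on the array, named through the RefSeq accession of its probe, whose symbol begins with Nduf, Uqcr, Atp5 or the Cox4 to Cox8 stems, together with Sdha, Sdhb, Sdhc and Sdhd. This gave 93 genes of 20018 named in that way: 38 subunit genes of complex I, 8 complex I assembly factors (Ndufaf genes), 4 of complex II, 8 of complex III, 18 of complex IV and 17 of complex V. They were measured by 124 probes, and each gene was read from its brightest probe. Of the 93, 90 passed the filter on dim probes and were tested among 22744 genes. Cox7b2, Cox8b and Cox8c were not well above background on any of the 12 arrays and were not tested. Some members have near-identical copies or pseudogenes elsewhere in the genome, and hybridisation does not separate transcripts that share the sequence of a probe.

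Total RNA of follicular zone B cells from the spleens of male C57BL/6J mice was hybridised to one-colour Agilent arrays. The cells were wild-type (WT) or Bach2-/-, that is, they lacked the transcription repressor Bach2. The design text gives the question as the weak proliferation of Bach2-/- cells when the B cell receptor is engaged. RNA was taken before stimulation (0 h) or after 24 h of culture with 10 µg/mL of anti-mouse IgM, which engages the receptor, so there were 4 groups of 3 arrays. The labels give no further detail on the Bach2 allele, and do not say whether the 3 arrays of a group came from separate mice or cultures, so every p-value measures the spread between these arrays, which may be technical.

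In oxidative phosphorylation, complex I passes electrons from NADH, and complex II electrons from succinate, to coenzyme Q; complex III hands them on to cytochrome c and complex IV to oxygen. Complexes I, III and IV pump protons across the inner mitochondrial membrane, and complex V, the ATP synthase, uses the returning protons to make ATP. Resting B cells are small and quiescent, and B cells that are activated through their receptor grow and raise their mitochondrial mass and respiration before they divide. All genes described here are nuclear; the subunits encoded by mitochondrial DNA were not analysed here.

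Signal is given as log2 of the background-subtracted probe signal relative to the 75th percentile of its array, so that 0 is the 75th percentile and 1 unit is a doubling. Differences come from 1 limma fit over all 4 groups, are followed by ± their standard error (SE, n = 3 arrays per group), and count as called where the p-value, adjusted after Benjamini and Hochberg across every gene tested, is under 0.05. Bach2 itself read 3.99, 3.40 and 3.69 in WT cells at 0 h and 1.33, 0.96 and 1.10 in Bach2-/- cells of the same time, a log2 difference of -2.56 ± 0.30; after 24 h the difference was -3.75 ± 0.30 (limma adjusted p = 0.00240 and 5.53e-05). No source used here gives the position of its probe relative to the deleted part. By the scan dates in the file headers, array 1 of every group was scanned apart from arrays 2 and 3. Arrays scanned together were taken to share a slide, called slide 2 for array 1 and slide 1 for arrays 2 and 3. The headers were not read for the slide itself. Arrays with the same number deviated together. Bach2-/- 0 h array 1 gave no Y-linked signal for Ddx3y or Eif2s3y although it is labelled male, and Bach2-/- 24 h array 2 was the dimmest, so results are also given without these 2 arrays. All 8 B cell markers and all 3 follicular B cell markers on the array were above background on every array, and both sets moved with the groups. Summed signal of the B cell markers, in multiples of the 75th percentile, spanned 990 to 1354 in WT 0 h, 451 to 855 in WT 24 h, 1121 to 1791 in Bach2-/- 0 h and 240 to 411 in Bach2-/- 24 h arrays, without overlap between the genotypes at 24 h. That of the follicular markers spanned 198 to 275, 15.1 to 23.0, 268 to 387 and 10.9 to 22.0 in the same order. That of 5 NK cell markers spanned 8.42 to 11.2, 6.23 to 8.42, 13.4 to 17.5 and 8.89 to 12.04 in the same order. The sums were higher in Bach2-/- cells at each time without overlap, but a sum is weighted to the brightest markers. In log2 relative to WT 0 h, the median NK marker lay at -0.15 in Bach2-/- 0 h. It lay at -2.19 in WT 24 h and -0.69 in Bach2-/- 24 h. Ncr1 was not above background on any array outside WT 0 h. Klrb1c was not above it on any 24 h array, nor Klre1 on any WT 24 h array. The ranges of 7 T cell markers overlapped between all groups, as did those of 5 macrophage and monocyte markers. Summed signal of 6 neutrophil markers spanned 12.4 to 33.4 in WT 0 h, 1.74 to 18.1 in WT 24 h, 27.9 to 57.1 in Bach2-/- 0 h and 12.4 to 53.9 in Bach2-/- 24 h arrays, with Mpo not above background on any WT array. That of 5 erythroid and platelet markers spanned 1.95 to 8.11, 0.309 to 1.49, 19.2 to 58.4 and 4.16 to 19.2 in the same order, with Ppbp not above background on any 24 h array of either genotype and Pf4 not above it on any WT 24 h array. Their part in the results below was not tested.

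Promoter windows from RefSeq (GRCm38.p6, 250 bases before to 50 after the annotated start) were at hand for 76 of the 93 genes, in 81 windows. They were searched on both strands for 5 short motifs associated with factors of nuclear respiratory genes, of growth or of Bach2: GCGCATGC (NRF1), CCGGAAG (ETS factors such as GABPA), AAGATGGC (YY1), CACGTG (the E-box of Myc and Max) and GCTGAGTCA (the core of the Maf recognition element, which Bach2 binds with small Maf proteins). Matches of different motifs shared no bases in these windows. The NRF1 letters were in 14.8% of the member windows and in 2.71% of all 32851 windows, the ETS letters in 23.5% and 8.86%, the YY1 letters in 13.6% and 2.75%, and the E-box in 8.64% and 7.15%. The Maf recognition core was in 0 of 81 member windows and in 0.454% of all windows. At so low a share, 81 windows are too few to show a lack of it. Members that passed the test as higher in WT cells, described below, had 22 windows, and the other members 59. The NRF1 letters were in 2 and 10 of them (9.09% and 16.9%), and the ETS letters in 3 and 16 (13.6% and 27.1%). The YY1 letters were in 2 and 9 (9.09% and 15.3%), and the E-box in 3 and 4 (13.6% and 6.78%). Ndufa7 counts more than once among the E-box windows of the other members. Of the 90 tested members 85 lay above 0 in WT cells, so most of the other members rose too without passing. The differences between these shares rest on few windows and were not tested. A match is only a match of letters, and no binding was measured.

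Windows of 5 members are shown as examples of how the motif letters lie in a promoter, picked by hand among the windows that hold 1 or more of them and with the results known, so they do not stand for the members as a whole; capitals mark the motif letters on either strand. Of the 5 genes, 4 passed the test as higher in WT cells, and Cox6a1, which passed no test, is shown as the counterpart of Cox6a2. Atp5g1 (chr11:96075582-96075881, minus strand), for one of the genes of the ATP synthase c-ring, holds an E-box 44 bases before the start. Ndufaf4 (chr4:24897833-24898132, plus strand), for a complex I assembly factor, holds NRF1 letters 113 bases before the start, where the reverse complement overlaps them, and again from base 2. Ndufb6 (chr4:40279372-40279671, minus strand), for an accessory subunit of complex I, holds the ETS letters 232 bases before the start. Atp5j (chr16:84834927-84835226, minus strand), for coupling factor 6 of the ATP synthase stalk, holds YY1 letters 88 and ETS letters 61 bases before the start; a further RefSeq window of Atp5j holds none of the 5 motifs and is not shown. Cox6a1 (chr5:115348909-115349208, minus strand), for the widely expressed form of cytochrome oxidase subunit VIa, holds NRF1 letters 162 and ETS letters 16 bases before the start.
Atp5g1: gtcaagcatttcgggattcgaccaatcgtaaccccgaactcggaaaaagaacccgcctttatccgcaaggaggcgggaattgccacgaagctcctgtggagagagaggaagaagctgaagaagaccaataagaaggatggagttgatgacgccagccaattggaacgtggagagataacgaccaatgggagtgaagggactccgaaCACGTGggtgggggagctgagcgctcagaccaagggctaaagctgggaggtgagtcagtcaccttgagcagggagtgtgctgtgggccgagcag
Ndufaf4: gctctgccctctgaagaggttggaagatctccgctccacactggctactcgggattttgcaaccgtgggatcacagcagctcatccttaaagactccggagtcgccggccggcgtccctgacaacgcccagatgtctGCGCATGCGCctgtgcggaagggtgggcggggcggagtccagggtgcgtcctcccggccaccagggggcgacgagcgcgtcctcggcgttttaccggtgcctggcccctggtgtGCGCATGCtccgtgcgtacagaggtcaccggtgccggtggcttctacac
Ndufb6: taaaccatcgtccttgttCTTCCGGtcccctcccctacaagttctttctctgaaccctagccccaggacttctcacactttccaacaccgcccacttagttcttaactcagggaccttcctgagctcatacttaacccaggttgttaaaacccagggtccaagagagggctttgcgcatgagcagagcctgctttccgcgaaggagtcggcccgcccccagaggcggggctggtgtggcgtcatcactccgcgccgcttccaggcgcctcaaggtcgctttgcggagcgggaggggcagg
Atp5j: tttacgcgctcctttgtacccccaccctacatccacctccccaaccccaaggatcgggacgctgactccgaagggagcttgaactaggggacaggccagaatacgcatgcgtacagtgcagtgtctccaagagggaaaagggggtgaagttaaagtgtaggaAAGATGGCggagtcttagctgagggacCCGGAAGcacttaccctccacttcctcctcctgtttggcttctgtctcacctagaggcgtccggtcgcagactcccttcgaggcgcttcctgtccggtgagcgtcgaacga
Cox6a1: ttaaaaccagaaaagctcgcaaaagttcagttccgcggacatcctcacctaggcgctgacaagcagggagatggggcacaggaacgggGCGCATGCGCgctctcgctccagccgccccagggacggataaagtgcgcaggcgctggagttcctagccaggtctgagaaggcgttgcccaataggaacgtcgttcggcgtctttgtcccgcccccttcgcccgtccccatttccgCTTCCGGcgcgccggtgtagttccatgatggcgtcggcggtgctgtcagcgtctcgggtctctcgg

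After 24 h of anti-IgM, oxidative phosphorylation genes rose in WT cells. Of 90 tested, 25 passed the test as higher and 0 as lower, where 11.5% of all genes passed as higher and 9.06% as lower. The median log2 difference over the 90 genes was 0.91, a 1.87-fold change, against 0.040 over all genes, and 85 of the 90 lay above 0. For 58 of 90, all 3 arrays at 24 h lay above all 3 at 0 h, and for 0 the reverse held; the shares of all genes were 22.2% and 16.0%. Because these are bulk samples, a change in RNA per cell and a change in the number of cells that carry the RNA cannot be told apart.

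The rise was present on both slides, with a median of 0.67 on slide 1 and 1.34 on slide 2. The median over the 90 genes, relative to the WT 0 h mean, stood in WT cells at 0.27, -0.042 and -0.21 before stimulation and at 1.55, 0.52 and 0.59 after it. Every WT 24 h array lay above every WT 0 h array, and array 1 was the highest of its group at both times. Taken within pairs of the same number, the median was 1.34, 0.53 and 0.82. With the replicate number as a block, 78 members passed as higher and 1, Cox7a2l, as lower (27.6% and 19.3% of all genes); those higher were 32 of complex I, 7 assembly factors, 4 of complex II, 7 of complex III, 11 of complex IV and 17 of complex V. The count was 12 without WT 0 h array 2, 8 without WT 0 h array 3, and 7 higher and 1 lower without WT 24 h array 1. Atp5b, Atp5g1, Atp5g3, Atp5j, Ndufa12, Ndufaf6 and Uqcr10 passed in all 19 alternatives run for this comparison. With normexp background correction Atp5a1, Atp5md, Cox5b, Cox6a2, Cox7b, Ndufaf2, Ndufaf7, Ndufc1 and Ndufv1 no longer passed, and without the filter on dim probes Atp5a1, Atp5md, Cox5b, Cox6a2, Cox7b, Ndufa4, Ndufaf2 and Ndufv1. Quantile normalization ended the calls of Atp5a1, Atp5md, Cox7b, Ndufb2 and Ndufv1, and fitting the WT groups alone those of Atp5g2, Atp5md, Cox7b and Ndufv1. Slide 1 alone lost Atp5a1 and Ndufa4, and the deposited table Atp5md and Ndufv1.

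**Figure D1:**
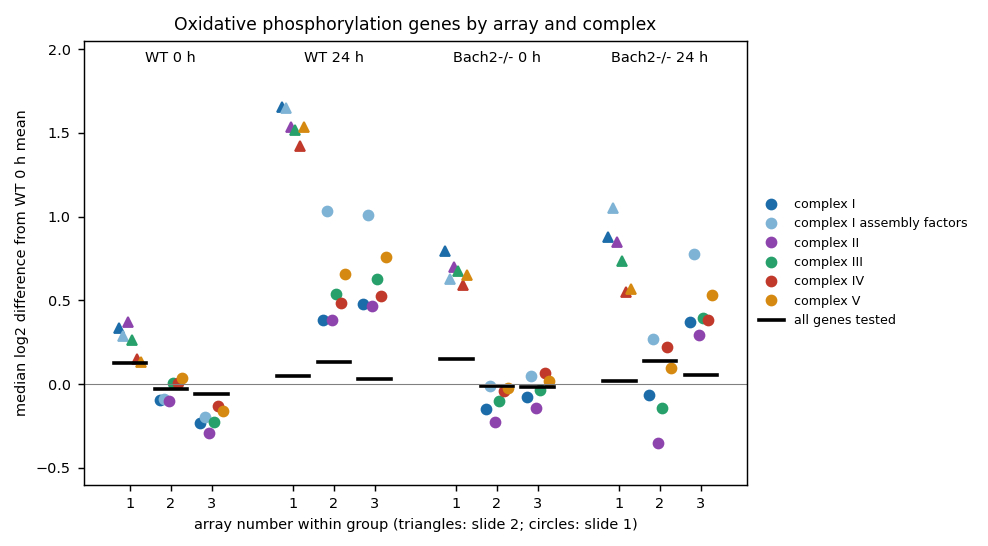
Median log2 difference from the WT 0 h mean (vertical axis) over the tested genes of each complex, for each of the 12 arrays; triangles are arrays on slide 2, circles arrays on slide 1, and black bars the median of all 22744 genes. Each complex is highest on WT 24 h array 1, where complex I lies at 1.65 and complex IV at 1.42. On Bach2-/- 24 h array 2 they part, with complex II at -0.35 and the complex I assembly factors at 0.27.

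Complex I, the NADH dehydrogenase, had 8 of 38 subunit genes higher (median 0.87). The 38 were assigned by symbol. They include Ndufa4, which is among the 8 but is now held to belong to complex IV, and its paralogue Ndufa4l2. Ndufab1, the mitochondrial acyl carrier protein, differed most, by 2.04 ± 0.54 (limma adjusted p = 0.0234), with WT 24 h array 2 left out of the fit as an outlier spot; the call was lost without WT 0 h array 2, WT 0 h array 3 or WT 24 h array 1 (adjusted p = 0.0734, 0.0678 and 0.169). Ndufa12, an accessory subunit, read 5.10, 4.74 and 4.63 before stimulation and 7.28, 6.16 and 6.38 after it. The groups did not overlap, and the log2 difference was 1.78 ± 0.37 (adjusted p = 0.00629). Of the 7 catalytic core subunits on the list, Ndufv1 and Ndufv2, which take up the electrons of NADH, passed (1.10 ± 0.36 and 1.21 ± 0.31), Ndufv1 only just, at an adjusted p of 0.0497, and it failed without any 1 of the 6 WT arrays; Ndufv2 failed without WT 0 h array 3 or WT 24 h array 1 (0.0723 and 0.0607). Ndufb6, whose window with the ETS letters is shown above, rose by 1.67 ± 0.42 (adjusted p = 0.0160), and was lost without WT 0 h array 2, WT 0 h array 3 or WT 24 h array 1 (0.0517, 0.0646 and 0.0565).

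The 8 complex I assembly factors, which help to build the complex and are not part of it, had the highest median of the 6 groups of members, 1.20, with 4 of 8 higher. Ndufaf4 read 2.48, 1.91 and 2.11 at 0 h and 4.34, 3.42 and 3.40 at 24 h, without overlap, and rose by 1.55 ± 0.38 (limma adjusted p = 0.0143). Its call was lost without WT 0 h array 2, WT 0 h array 3 or WT 24 h array 1 (0.0547, 0.0516 and 0.0575). Ndufaf6 rose by 1.50 ± 0.35 (adjusted p = 0.0114). Whether the median of the assembly factors differs from that of the subunits was not tested.

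Complex II, which is also the succinate dehydrogenase of the TCA cycle, had 0 of 4 genes called. The log2 differences were 0.64 ± 0.36 for the flavoprotein gene Sdha, 0.58 ± 0.40 for the iron-sulfur subunit gene Sdhb, and 0.89 ± 0.54 and 1.22 ± 0.44 for the membrane anchors Sdhc and Sdhd. All 4 lay above 0, and all 4 passed with the replicate number as a block.

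Complex III, which oxidises coenzyme Q, had 2 of 8 genes higher (median 0.89). Uqcr10, a small subunit, read 5.67, 5.35 and 5.13 at 0 h and 8.29, 6.84 and 6.86 at 24 h, and rose by 1.95 ± 0.42 (limma adjusted p = 0.00697), without overlap. Uqcrq, another small subunit, rose by 1.49 ± 0.38 (adjusted p = 0.0171), and was lost without WT 0 h array 3 or WT 24 h array 1 (0.0701 and 0.0551). The other 6 members, among them the core proteins Uqcrc1 and Uqcrc2 and the Rieske protein Uqcrfs1, did not pass.

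Complex IV, cytochrome c oxidase, had 4 of 15 genes higher (median 0.96): Cox7b (1.36 ± 0.39), Cox5a (1.29 ± 0.32), Cox5b (1.15 ± 0.32) and Cox6a2. Cox7b and Cox5a had limma adjusted p-values of 0.0294 and 0.0156, and both were lost without WT 0 h array 3 or WT 24 h array 1 (0.0942 and 0.0919 for Cox7b; 0.0637 and 0.0576 for Cox5a), Cox7b also without WT 0 h array 2 (0.0882). Cox5b was lost without any 1 of the 0 h arrays or WT 24 h array 1 (0.0516 to 0.103). Cox7a2l was on the other side: it read 7.84, 7.75 and 7.63 at 0 h and 7.69, 6.81 and 6.92 at 24 h. Its product is described as joining complexes III and IV into supercomplexes, a role not examined in these cells. Array 1 at 24 h lay within the 0 h range and the other 2 below it, and the difference was -0.60 ± 0.27 (adjusted p = 0.148; 0.0206 with the replicate block; 0.0383 without WT 24 h array 1).

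Complex V, the ATP synthase, had 7 of 17 genes higher, and all 17 lay above 0, from 0.67 to 1.51 (median 0.97). They included the genes of the α and β subunits of the catalytic head, Atp5a1 (0.91 ± 0.25, limma adjusted p = 0.0238) and Atp5b (1.10 ± 0.26, 0.0111), and all 3 genes of the c-ring. Of these, Atp5g1 read 6.32, 6.07 and 5.82 at 0 h and 8.13, 7.33 and 7.29 at 24 h, and rose by 1.51 ± 0.31 (adjusted p = 0.00517), without overlap; Atp5g2 rose by 1.21 ± 0.33 and Atp5g3 by 1.30 ± 0.29. Atp5md, a small subunit of the membrane part, rose by 1.35 ± 0.43 (adjusted p = 0.0484), and was lost without any 1 of the WT arrays except WT 24 h array 2. Atp5a1 was lost without WT 0 h array 1, 2 or 3 or WT 24 h array 1 or 3, and Atp5g2 without WT 0 h array 2 or 3 or WT 24 h array 1.

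In Bach2-/- cells the same stimulation gave 1 member higher, Cox6a2, and 0 lower, where 5.5% of all genes passed as higher and 7.74% as lower. The median over the 90 genes was 0.25, against 0.072 over all genes, and 66 of 90 lay above 0. The members' median relative to the WT 0 h mean was 0.71, -0.11 and -0.019 on the Bach2-/- 0 h arrays and 0.76, 0.011 and 0.43 on the Bach2-/- 24 h arrays, so the groups overlapped. Arrays with number 1 lay high at both times. Within pairs the median was 0.066, 0.17 and 0.45. Without the 2 arrays named above it was 0.67, with 2 members higher. With the replicate number as a block, 15 passed as higher, among them Uqcr10 and Ndufa12, and 2 as lower, Cox7a2l and Ndufa6, an accessory subunit of complex I (16.7% and 16.8% of all genes).

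By complex, the Bach2-/- medians ran from 0.15 in complex V to 0.39 in the complex I assembly factors. The 3 members with the smallest p-values in WT cells had smaller differences here that did not pass: 0.88 ± 0.42 for Uqcr10 (limma adjusted p = 0.232), 0.79 ± 0.37 for Ndufa12 (0.234) and 0.68 ± 0.31 for Atp5g1 (0.201). Ndufab1, which differed most in WT cells, stood at 0.64 ± 0.49 (0.529). All of these were picked by their WT values in the same data, so smaller values here cannot by themselves show a weaker response. Uqcr10 read 6.40, 5.42 and 5.37 at 0 h and 6.88, 6.30 and 6.63 at 24 h; array 1 at 0 h lay within the 24 h range. Atp5g1 read 6.82, 6.24 and 6.12 at 0 h and 7.36, 6.80 and 7.08 at 24 h, with array 1 at 0 h just above the lowest 24 h array.

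**Figure D2:**
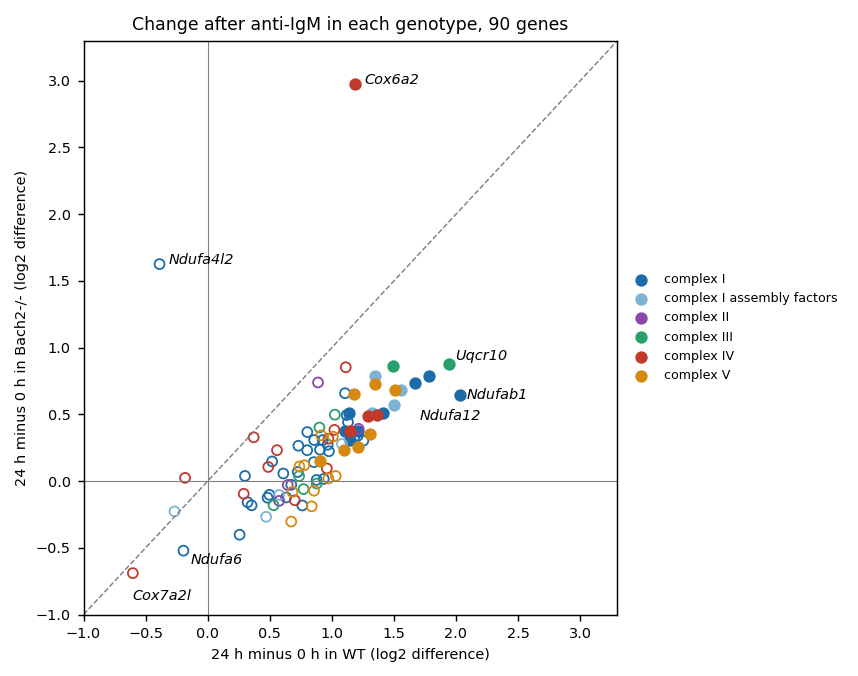
Log2 difference between 24 h and 0 h in WT cells (horizontal axis) and in Bach2-/- cells (vertical axis) for the 90 tested genes, coloured by complex; filled points passed the test in WT cells and the dashed line marks equal change. Cox6a2 (1.19 in WT, 2.97 in Bach2-/-) and Ndufa4l2 lie far above the line, while Uqcr10, Ndufa12 and Ndufab1 lie below it.

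The difference between the responses, tested as the interaction of genotype and time, passed for 0 of 90 genes in either direction in limma (0.255% of all genes passed as higher and 0.0616% as lower), and with the replicate block for 1, Cox6a2, as higher (1.72% of all genes) and 0 as lower (2.56%). At an unadjusted p under 0.05 the 90 genes held 2 higher and 3 lower, where all 22744 genes held 830 and 799. Neither count of members stood above the share of all genes. The median difference, Bach2-/- minus WT, was -0.69, against -0.089 over all genes, and 86 of 90 lay below 0. For 71 of 90 it was below 0 in all 3 pairs, as for 32.1% of all genes. It was -0.40 on slide 1 and -1.21 on slide 2, and -0.23 without the 2 arrays named above. Members with the smallest unadjusted p were Atp5b (-0.86 ± 0.36, adjusted p = 0.644) and Atp5g3 (-0.95 ± 0.41, 0.661) on the lower side and Cox6a2 and Ndufa4l2 on the higher side.

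Before stimulation, no member passed the test of genotype: 0 of 90 passed in either direction in limma (0.629% of all genes), and 0 of 90 with the replicate block (3.7% of all genes). At an unadjusted p under 0.05 there were 0 higher and 1 lower, where all 22744 genes held 888 and 501. The median difference, Bach2-/- minus WT, was 0.19, against 0.032 over all genes, and 84 of 90 lay above 0 (54.5% of all genes). This median turned to -0.061 without Bach2-/- 0 h array 1. The 1 member lower at the unadjusted level was Ndufa4l2, the hypoxia-induced paralogue of Ndufa4, at -1.39 ± 0.55 (limma adjusted p = 0.645). It read -3.39, -3.72 and -3.86 in WT 0 h, -4.29, -4.05 and -3.81 in WT 24 h, -4.48, -6.61 and -4.04 in Bach2-/- 0 h, and -3.72, -2.85 and -3.68 in Bach2-/- 24 h arrays. Its probe was well above background on 3, 2, 1 and 3 arrays of these groups, and the value at -6.61 lies near the lowest that the scale allows. On the higher side the smallest p-values were those of Ndufa12 (0.47 ± 0.37) and Atp5b (0.31 ± 0.26).

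At 24 h, 86 of 90 members were at a lower mean in Bach2-/- than in WT cells, but 0 passed the test as lower in limma, and 1, Cox6a2, passed as higher (0.831% and 2.15% of all genes). The median difference was -0.51, against -0.053 over all genes, and 70 of 90 were lower in all 3 pairs, as were 31.8% of all genes. Within pairs the median was -0.76, -0.48 and -0.15. The members' median relative to the WT 0 h mean was 1.55, 0.52 and 0.59 on the WT 24 h arrays. On the Bach2-/- 24 h arrays it was 0.76, 0.011 and 0.43, so the groups overlapped. All 3 Bach2-/- arrays lay below all 3 WT arrays for 7 members, 5 of them of complex V, and above them for 2 (7.64% and 7.76% of all genes). With the replicate number as a block, 1 member passed as higher (7.98% of all genes) and 23 as lower (10.7% of all genes): 7 of complex I, 3 assembly factors, 2 of complex II, 3 of complex III, 1 of complex IV and 7 of complex V. At an unadjusted p under 0.05 without the block, 1 member was higher and 6 were lower, where all 22744 genes held 1528 and 1299. The 6 were near the share of all genes. The median was -0.32 on slide 1 and -0.76 on slide 2, -0.15 without WT 24 h array 1, and -0.29 without the 2 arrays named above.

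Atp5a1, for the α subunit of the ATP synthase, had the smallest p-value on the lower side. It read 7.66, 7.11 and 7.32 in WT 24 h and 6.82, 6.31 and 6.98 in Bach2-/- 24 h arrays, without overlap, a difference of -0.66 ± 0.25 (limma adjusted p = 0.271; 0.0352 with the replicate block). Ndufb5, an accessory subunit of complex I, read 6.16, 5.19 and 5.38 in WT and 5.05, 4.47 and 4.93 in Bach2-/- cells, a difference of -0.76 ± 0.30 (0.300; 0.0231 with the block). The ranges did not overlap here either, although WT array 1 stood apart from the other 2. In complex II, Sdhd and Sdha stood at -0.80 ± 0.44 and -0.61 ± 0.36, and Sdhb and Sdhc at -0.44 ± 0.40 and -0.06 ± 0.54; none of the 4 passed. Summed signal of 5 plasma cell markers spanned 96.4 to 176 in WT 24 h and 124 to 238 in Bach2-/- 24 h arrays. Such a sum is weighted to the brightest markers. The median marker, in log2 relative to WT 0 h, lay at -0.47 in WT 24 h and 1.11 in Bach2-/- 24 h. The part of these markers in the differences above was not tested.

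**Figure D3:**
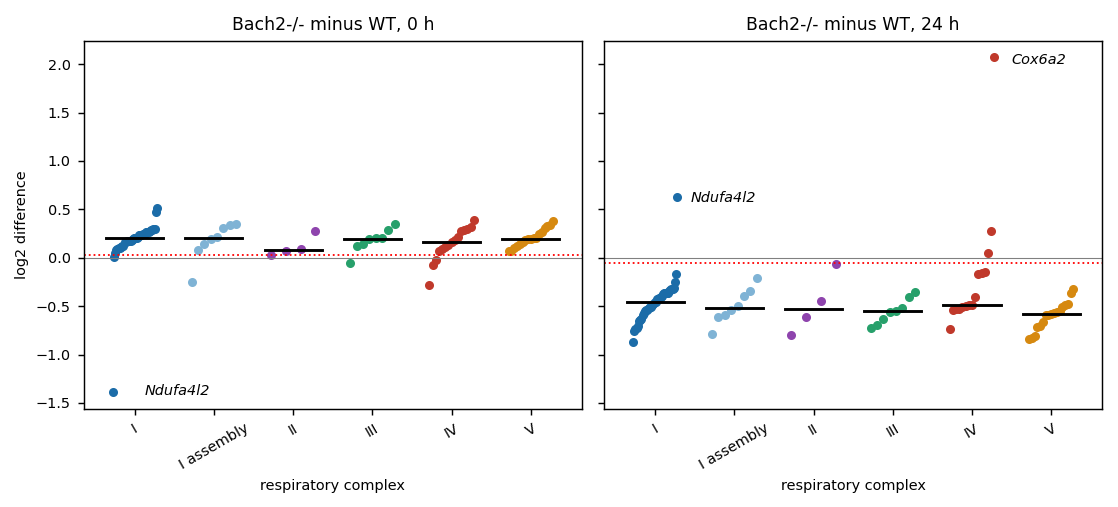
Log2 difference between Bach2-/- and WT cells at 0 h and at 24 h (vertical axis) for each tested gene, sorted within its complex (horizontal axis); black bars are the medians of the complexes and the red dotted line the median of all genes. At 24 h all 6 medians lie below 0, from -0.46 in complex I to -0.58 in complex V, while Cox6a2 lies at 2.07.

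Several subunits of complex IV exist in alternative forms, and Cox6a2, the heart and skeletal muscle form of subunit VIa, was the member that stood farthest from the rest. It read -2.54, -3.33 and -3.34 in WT 0 h and -1.65, -1.84 and -2.15 in WT 24 h arrays. In Bach2-/- cells it read -2.78, -2.85 and -2.74 before stimulation and 0.87, 0.12 and -0.43 after it. The 3 Bach2-/- 24 h arrays lay above all other 9, and the WT 24 h arrays above all 0 h arrays. It rose by 2.97 ± 0.34 in Bach2-/- cells, 7.86-fold (limma adjusted p = 0.000127), and by 1.19 ± 0.34 in WT cells, 2.28-fold (0.0291). At 24 h it was 4.19-fold higher in Bach2-/- than in WT cells (2.07 ± 0.34, adjusted p = 0.00637), and at 0 h the difference was 0.28 ± 0.34.

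The interaction for Cox6a2 was 1.79 ± 0.48 (limma adjusted p = 0.266; 0.0180 with the replicate block). Over all alternatives, the adjusted p ranged from 3.41e-06 to 0.00286 for its rise in Bach2-/- cells, from 0.000227 to 0.0572 for the genotype difference at 24 h, and from 0.0180 to 0.547 for the interaction. The genotype difference failed only where the 2 compared groups were fitted alone. The rise in WT cells failed without WT 0 h array 2 or 3 or WT 24 h array 1 or 2 (0.101, 0.115, 0.0959 and 0.0746), without the filter on dim probes (0.0553), and with normexp background correction, where it shrank from 1.19 to 0.41 (0.278). Its widely expressed counterpart Cox6a1 read 8.37 ± 0.36 (SD, n = 3) in WT 0 h, 8.66 ± 0.63 in WT 24 h, 8.35 ± 0.57 in Bach2-/- 0 h and 8.26 ± 0.47 in Bach2-/- 24 h arrays. The 4 ranges overlap, array 1 is the highest in each, and none of its 5 tests passed.

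The other paired forms gave no member past the test apart from those named. Cox4i1 and its lung form Cox4i2 differed between 24 h and 0 h by 0.49 ± 0.35 and -0.18 ± 0.50 in WT cells and by 0.11 ± 0.35 and 0.02 ± 0.50 in Bach2-/- cells. Cox6b1 and its testis form Cox6b2 differed by 0.96 ± 0.42 and 0.37 ± 0.32 in WT cells. Cox7a1, the heart and muscle form of subunit VIIa, and Cox7a2 differed by 0.70 ± 0.37 and 1.02 ± 0.37 in WT cells, and Cox8a by 0.56 ± 0.29. Ndufa4, first assigned to complex I and now held to belong to complex IV, rose by 1.14 ± 0.33 in WT cells (limma adjusted p = 0.0306), lost without any 1 of the WT arrays except WT 24 h array 2, whereas Ndufa4l2 stood at -0.39 ± 0.55 there and at 1.63 ± 0.55 in Bach2-/- cells (0.0786).

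**Figure D4:**
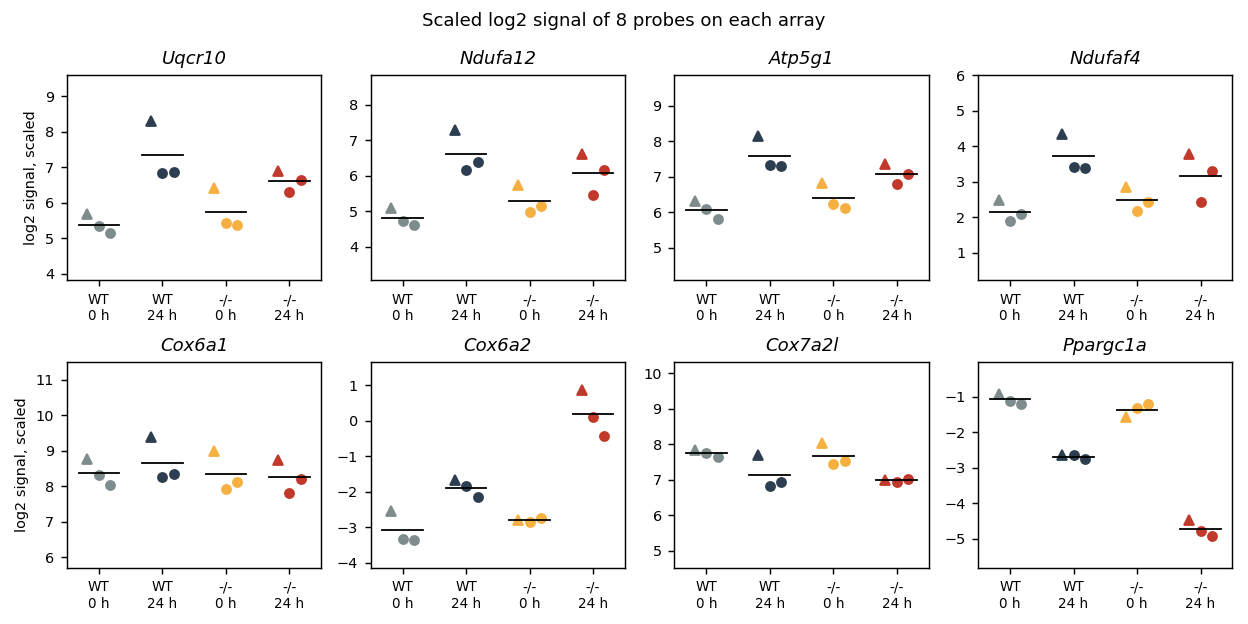
Scaled log2 signal (vertical axis, the same span in every panel) of 8 probes in the 3 arrays of each group (horizontal axis); triangles are array 1 (slide 2), circles arrays 2 and 3 (slide 1), and black bars the group means. Uqcr10, Ndufa12, Atp5g1 and Ndufaf4 are highest in WT 24 h, Cox6a2 is highest and Ppargc1a lowest in Bach2-/- 24 h.

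Genes that work beside the complexes were read from 4 further lists. Their counts stand against the 11.5% and 9.06% of all genes that passed as higher and lower in WT cells, and the 5.5% and 7.74% in Bach2-/- cells. Of 34 other assembly factors, 7 (20.6%) rose and 0 fell in WT cells (median 0.72), led by Nubpl, which delivers iron-sulfur clusters to complex I (2.06 ± 0.49), and Coa7, for assembly of complex IV (1.94 ± 0.41), with 0 called in Bach2-/- cells; Nubpl was lost without WT 0 h array 3 or WT 24 h array 1 (limma adjusted p = 0.0582 and 0.0519). Of 18 genes for cytochrome c, cytochrome c1, coenzyme Q synthesis and the carriers of ADP, ATP and phosphate, 7 (38.9%) rose and 0 fell in WT cells (median 0.90). Coq7, a hydroxylase of coenzyme Q synthesis, rose most, by 2.09 ± 0.28 in WT cells, and by 1.39 ± 0.28 in Bach2-/- cells (adjusted p = 0.000481 and 0.00630); the rise in Bach2-/- cells was lost with normexp background correction (1.18, 0.0772). Of 19 TCA cycle genes, 3 (15.8%, near the share of all genes) rose and 0 fell in WT cells (median 0.76), with Idh2, the mitochondrial isocitrate dehydrogenase, at 1.10 ± 0.31, lost without WT 0 h array 2 or 3 or WT 24 h array 1 (0.0679, 0.112 and 0.105), with normexp (0.0764), without the filter (0.0545) or with the WT groups alone (0.0519), and 0 were called in Bach2-/- cells. The Bach2-/- medians of the 3 lists were 0.19, 0.35 and 0.13. With the replicate number as a block, 21, 14 and 17 genes of these lists passed as higher in WT cells and 0, 1 and 0 as lower (27.6% and 19.3% of all genes). In Bach2-/- cells 5, 6 and 1 passed as higher and 3, 1 and 1 as lower (16.7% and 16.8% of all genes), so that in the lists of assembly factors and TCA cycle genes neither direction exceeded the share of all genes. Between the genotypes at 24 h, 9, 4 and 10 passed as lower in Bach2-/- cells and 0, 2 and 0 as higher (10.7% and 7.98% of all genes). Coq8a, an atypical kinase needed for coenzyme Q synthesis, was the 1 gene lower in each genotype on the second list, at -1.28 ± 0.42 in both, with no overlap of times in either (adjusted p = 0.0512 and 0.0726; 7.1e-05 and 8.9e-05 with the block).

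Coq10b, a coenzyme Q-binding protein, rose in Bach2-/- cells by 1.45 ± 0.28 (limma adjusted p = 0.00444) and stood at 0.012 ± 0.28 in WT cells. It read 0.63, 0.014 and 0.097 in WT 24 h and 1.81, 1.45 and 1.38 in Bach2-/- 24 h arrays. The ranges did not overlap, and the difference was 1.30 ± 0.28 (adjusted p = 0.0298), which was lost without any 1 of the 24 h arrays except WT 24 h array 1 (0.0579 to 0.132), and with normexp (1.04, 0.0516), no filter on dim probes (0.0588), the mean over its probes (1.09, 0.141) or the compared groups alone (0.152). Its interaction of 1.43 ± 0.40 did not pass (0.286; 0.00929 with the replicate block).

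Of 21 regulators of mitochondrial genes, 5 (23.8%) rose and 1 fell in WT cells, and 0 rose and 1 fell in Bach2-/- cells, against the shares of all genes given above. With the replicate block these were 10 and 2 in WT cells (27.6% and 19.3% of all genes) and 4 and 5 in Bach2-/- cells (16.7% and 16.8%), the 4 being near the share of all genes. Slirp, which binds mitochondrial mRNAs, led the rises (1.75 ± 0.46, limma adjusted p = 0.0196), and was lost without WT 0 h array 2 or 3 or WT 24 h array 1 (0.0635, 0.0805 and 0.0681). Pprc1, another of the 5, read -1.48, -0.56 and -0.51 in WT 0 h and 0.36, 0.62 and 0.65 in WT 24 h arrays. Its rise in WT cells passed in all 19 alternatives (limma adjusted p at most 0.0425). The gene that fell was in both genotypes Ppargc1a, for the coactivator PGC-1α of mitochondrial biogenesis. It read -0.90, -1.10 and -1.19 in WT 0 h, -2.65, -2.63 and -2.76 in WT 24 h, -1.56, -1.30 and -1.21 in Bach2-/- 0 h, and -4.45, -4.76 and -4.92 in Bach2-/- 24 h arrays. Each genotype fell at 24 h without overlap, and the Bach2-/- 24 h arrays were the lowest of all 12. Between the genotypes at 24 h, all 21 regulators were at a lower mean in Bach2-/- cells, where 45.9% of all genes lay above 0. Their median was -0.46, and -0.23 without the 2 arrays named above. Only Ppargc1a passed as lower in limma. With the replicate block 8 passed as lower and 0 as higher (10.7% and 7.98% of all genes).

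Ppargc1a differed between 24 h and 0 h by -1.61 ± 0.22 in WT and by -3.36 ± 0.22 in Bach2-/- cells (limma adjusted p = 0.000436 and 1.99e-06). At 24 h the genotypes differed by -2.03 ± 0.22 (0.000350), and the interaction was -1.74 ± 0.31 (0.0398). Its probe was well above background on only 1 of the 3 Bach2-/- 24 h arrays, and with normexp background correction the genotype difference was -0.31 and the interaction -0.15, neither past the test (0.872 and 1.00); the fall in WT cells shrank to -0.77 and no longer passed (0.0564). The interaction also failed with quantile normalization (0.0803), without the filter on dim probes (0.11), without the 2 arrays named above (0.0733) and without any 1 of 11 arrays (0.0522 to 0.165), passing, among the single arrays left out, only without Bach2-/- 24 h array 1.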

How the data were processed

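The authors deposited 1 scanner output file per array, written by Agilent Feature Extraction 10.7.3.1 per the submitters' processing notes, and a table of processed log2 values. Per the file headers, the intensity used here is the background-subtracted processed signal, and the deposited flags mark spots that are well above background, saturated or outliers. The scanner values were taken as deviations from each probe's median over the arrays. The deposited log2 table correlated with these deviations at r = 0.9988 to 0.9999 per array. Its column medians ran from -0.27 to 0.49, and its scale fitted 75th percentile scaling. Its values thus varied as values centred on each probe would, but no source used here states its centring.

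Control spots and outlier spots were left out, replicate spots averaged, signals divided by the array's 75th percentile, floored at 0.01 and put on the log2 scale. A probe was kept if any group had it well above background on each of its 3 arrays; 30735 of 55681 probes remained, and each gene was read from its probe with the highest mean. The 75th percentile was 87.4 to 307 intensity units and 50.5% to 66.7% of probes were well above background, and the number of arrays limits the precision. limma 3.58.1 (R 4.3.3) fitted the 4 groups with empirical Bayes moderation and Benjamini-Hochberg adjustment over 22744 genes; the fit was tested on simulated data. Gene symbols and promoters came from RefSeq tables (GRCm38.p6).

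Arrays were grouped by the labels. Deviations from group means correlated at 0.47 to 0.89 in all 18 pairs of arrays with the same number, so the numbers were taken to pair the samples; on the same slide, arrays with other numbers correlated at 0.25 to 0.64. The fit reported first has no block, as no method of the study states one.

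The members, the lists and the tests were chosen with earlier results of these data known. Genes named are those past the test in a genotype comparison (otherwise the 2 with the smallest p in each direction), the 2 largest changes past the test per complex and response, the paired isoforms, the Sdh genes, dim members, and the largest changes of each list. Alternatives covered scaling, background, filters, probe choice, blocks by number or slide, left-out arrays and the deposited table. The level of a marker gene of other cells is not reported here.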

Additional observations from a re-analysis of the deposited data

Results flagged for a closer look

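Cox6a2 was noted because its response to anti-IgM differed between the genotypes, by 1.79 on the log2 scale (limma adjusted p = 0.266; 0.0180 with the replicate block). It rose by 0.89, 1.48 and 1.19 in the 3 WT pairs and by 3.65, 2.97 and 2.30 in the 3 Bach2-/- pairs, so every Bach2-/- pair exceeded every WT pair. Ppargc1a was noted because its interaction passed the test, at -1.74 (adjusted p = 0.0398), but the call was lost in 15 alternatives, among them normexp background correction (-0.15, 1.00), quantile normalization (0.0803), no filter on dim probes (0.11) and 11 of the 12 arrays left out in turn.

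Ndufa3, an accessory subunit of complex I, and Ndufaf3, an assembly factor of complex I, moved in opposite directions in the 2 genotypes. Ndufa3 was higher at 24 h in all 3 WT pairs, by 0.63, 0.10 and 0.24, and lower in all 3 Bach2-/- pairs, by -0.32, -0.10 and -0.049; the difference of responses was -0.48 (limma adjusted p = 0.920; 0.168 with the replicate block). Ndufaf3 was higher by 0.73, 0.25 and 0.44 in the WT pairs and lower, by -0.23, -0.28 and -0.30, in the Bach2-/- pairs, a difference of -0.74 (0.902; 0.0622 with the block). Neither difference passed the test.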

How the results depend on the processing

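The WT rise kept its direction in every alternative run. Its count of 25 members higher became 16 with normexp background correction, 38 higher and 1 lower on slide 1 alone, 78 higher and 1 lower with the replicate block and also with a slide block, and 7 to 25 higher and 0 to 1 lower with 1 array left out; quantile normalization gave 2 lower and a median of 0.47. Quantile normalization also brought the median from 0.25 to 0.15 in Bach2-/- cells, from 0.19 to 0.077 for the genotypes at 0 h, from -0.51 to -0.28 at 24 h and from -0.69 to -0.33 for the difference of responses, and normexp the Bach2-/- median to 0.12. In Bach2-/- cells the count of 1 higher became 2 with quantile normalization, with the mean over a gene's probes and without both doubted arrays, 5 on slide 1 alone, 14 with a slide block, 15 with the replicate block and 1 to 2 with 1 array left out; 0 lower became 2 with quantile normalization, the replicate block and the slide block. At 24 h the 1 member higher in Bach2-/- cells became 0 with the compared groups fitted alone, and 0 lower became 23 with the replicate block and 20 with the slide block. For the difference of responses, both blocks gave 1 member higher. The medians with 1 array left out ran from 0.56 to 1.09 in WT cells, 0.080 to 0.46 in Bach2-/- cells, -0.061 to 0.33 for the genotypes at 0 h, -0.69 to -0.15 at 24 h and -0.89 to -0.34 for the difference of responses. The sign turned for Ndufa2 (-0.033) and Ndufv3 (-0.024) in WT cells under quantile normalization, for Ndufaf8 without WT 0 h array 1 (-0.22 to 1.96 over the arrays left out), and for Cox6c between the genotypes at 0 h without Bach2-/- 0 h array 2 (-0.60 to 0.27). The cause of these changes was not tested. Scaling over spots was added after seeing the data and changed no count by more than 1.5 times. With 3 arrays a group, an exact permutation test of a single value cannot fall below p = 0.1, and dim probes such as those of Ndufa4l2 and Ppargc1a are limited by their distance from background.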
